A study of Mus musculus with 14 samples.

Results

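The proteasome is the barrel-shaped protease that degrades ubiquitin-tagged proteins in the cytosol and nucleus. Its genes were followed here as every row of both count tables whose identifier maps to a protein-coding mouse gene named Psma, Psmb, Psmc or Psmd with a number, or Psme1 to Psme4. This gave 43 genes of 49671 gene rows in each table. They comprised 31 constitutive subunits, 3 catalytic subunits of the immunoproteasome, 3 assembly chaperones of the cap, 4 activators and 2 subunits restricted to other tissues.

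The libraries came from satellite cells, the resident stem cells of skeletal muscle, sorted without culture from uninjured muscle of the hind limb, the chest and the triceps of C57BL/6J mice. Each library held 1000 cells that carried B1-integrin and CXCR4 at the surface and lacked the blood markers CD45, CD11b and Ter119, the endothelial CD31 and Sca1. In the first dataset 4 libraries labelled FosGFP+ were set against 4 labelled FosGFP-, all from 4-month-old mice of the FosGFP reporter line, in which GFP reports activity of the transcription factor gene Fos. In the second dataset 3 libraries labelled FoscKO, a conditional knockout of Fos, were set against 3 labelled Control, all from 6-month-old mice. The Cre line and the deleted part of Fos are not given in the sources used here. The design text names a reporter-positive gate for FoscKO and Control alike, so all 6 may be FosGFP+ cells. It counts 4 mice in the first dataset and 3 in the second, and the labels do not say which mouse gave which library, so p-values measure the spread between libraries, which may in part be technical. Since the cells were pooled, fewer expressing cells and less RNA per cell cannot be told apart.

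Each 20S core is built of stacked rings of alpha and beta subunits, and the beta subunits Psmb5, Psmb6 and Psmb7 carry the chymotrypsin-like, caspase-like and trypsin-like sites. Under interferon these are replaced in newly built cores by Psmb8, Psmb9 and Psmb10, which makes the immunoproteasome. The 19S cap binds ubiquitin chains and unfolds the substrate with a ring of ATPases, encoded by Psmc genes, while most Psmd genes encode the rest of the cap. In mouse satellite cells, loss of the cap ATPase Psmc4 is known to deplete the stem cell pool, and the transcription factor Nfe2l1 is known to drive subunit genes together when proteasome activity falls short.

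Libraries held 3806776 to 5983711 gene counts in FosGFP+ and 2652230 to 4067543 in FosGFP-. In the other dataset they held 4797954 to 10241655 in FoscKO and 5326686 to 6930696 in Control. An even background of reads, taken from the density over chemosensory receptor genes that muscle should not express, made up 6.39% to 10.6% of gene counts in FosGFP+ and 13.0% to 19.4% in FosGFP-. It made up 3.98% to 11.7% in FoscKO and 9.07% to 10.6% in Control. Fos mRNA itself went against the reporter label, at 4502 ± 1030 CPM (gene counts scaled to library size, with TMM factors) in FosGFP+ and 10721 ± 2085 CPM in FosGFP- (SD, n = 4 each; log2 fold change -1.25 ± 0.21, edgeR adjusted p 9.33e-04). It stood at 4990 ± 2952 CPM in FoscKO and 4884 ± 172 CPM in Control (SD, n = 3 each). Every direction is therefore one between labels. The 10 satellite cell markers summed to 7904 to 11799 CPM in FosGFP+ and 4962 to 7214 CPM in FosGFP-, a sum carried by Sdc4 and Vcam1. Of the 10, Sdc4, Vcam1 and Itgb1 were called higher, while Pax7, Calcr, Chodl and Cdh15 had log2 fold changes of -0.44, -0.51, -0.40 and -0.09 and were not called. Myf5, Itga7 and Cxcr4 were not called either, and the median log2 fold change over the 10 was 0.20. The 14 leukocyte markers summed to 66.2 to 115 CPM in FosGFP+ and 97.9 to 178 CPM in FosGFP-, and 12 endothelial markers to 224 to 292 CPM in FosGFP+ and 294 to 401 CPM in FosGFP-, without overlap. The endothelial Ramp2 (log2 fold change -1.31, edgeR adjusted p 0.00753) and the fibro-adipogenic Smoc2 (-3.84, 0.0113) were called lower. They were the only calls among 11 endothelial and 7 fibro-adipogenic markers tested. The 8 fibro-adipogenic markers summed to 1991 to 2860 CPM in FosGFP+ and 1262 to 3034 CPM in FosGFP-, which overlapped. The part of these cell types in the results was not tested.

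The first comparison asks how the subunit genes differ between satellite cells sorted as positive and as negative for the Fos reporter. In the libraries labelled FosGFP+, 25 of the 42 tested genes were higher and none lower, among them 23 of 31 constitutive subunits. Over all 20698 genes tested, 10.3% were called higher and 1.85% lower. Of the 6909 genes within the range of mean CPM that the constitutive subunits span, 20.6 to 209 CPM, 23.3% were called higher and 1.55% lower. The constitutive subunits had a median log2 fold change of 0.74, with every one of the 31 above 0, from 0.08 to 1.27. The 3 immunoproteasome subunits had a median of -0.62 and none was called. Genes within 10% of their own, much lower, CPM also lay below 0, with a median of -0.40, and the median immunoproteasome subunit fell below its neighbours by 0.18. Calls are Benjamini-Hochberg adjusted p-values under 0.05 in the quasi-likelihood test of edgeR over all genes tested, and fold changes are FosGFP+ minus FosGFP-.

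The genes of similar level had also shifted upward, so the share of calls has to be read against them. All genes tested had a median log2 fold change of -0.18, the 3946 genes of at least 50 CPM one of 0.57, and the genes of the subunits' CPM range one of 0.31. When each constitutive subunit was set beside the other genes within 10% of its own mean CPM, a comparison chosen after the data were seen, 40.1% of those neighbours were called higher on average. Among the constitutive subunits 25 of 31 lay above the median of their neighbours, by 0.18 in the median subunit, and that subunit lay above 65.0% of its neighbours. The summed level of the 31 constitutive subunits was 3776, 4439, 4084 and 4487 CPM in FosGFP+ replicates 1 to 4, against 2436, 2391, 2677 and 2415 CPM in FosGFP-. As a share of all gene counts it was 0.367% ± 0.0207 in FosGFP+ and 0.284% ± 0.0239 in FosGFP- (SD, n = 4 each), and the 4 FosGFP+ libraries lay above the 4 FosGFP- libraries. Such a share amounts to scaling by total counts, and those counts include the background reads, which were more frequent in FosGFP-. Scaled by total counts, the median log2 fold change was 0.35 for constitutive subunits and 0.18 for genes of at least 50 CPM.

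**Figure D1:**
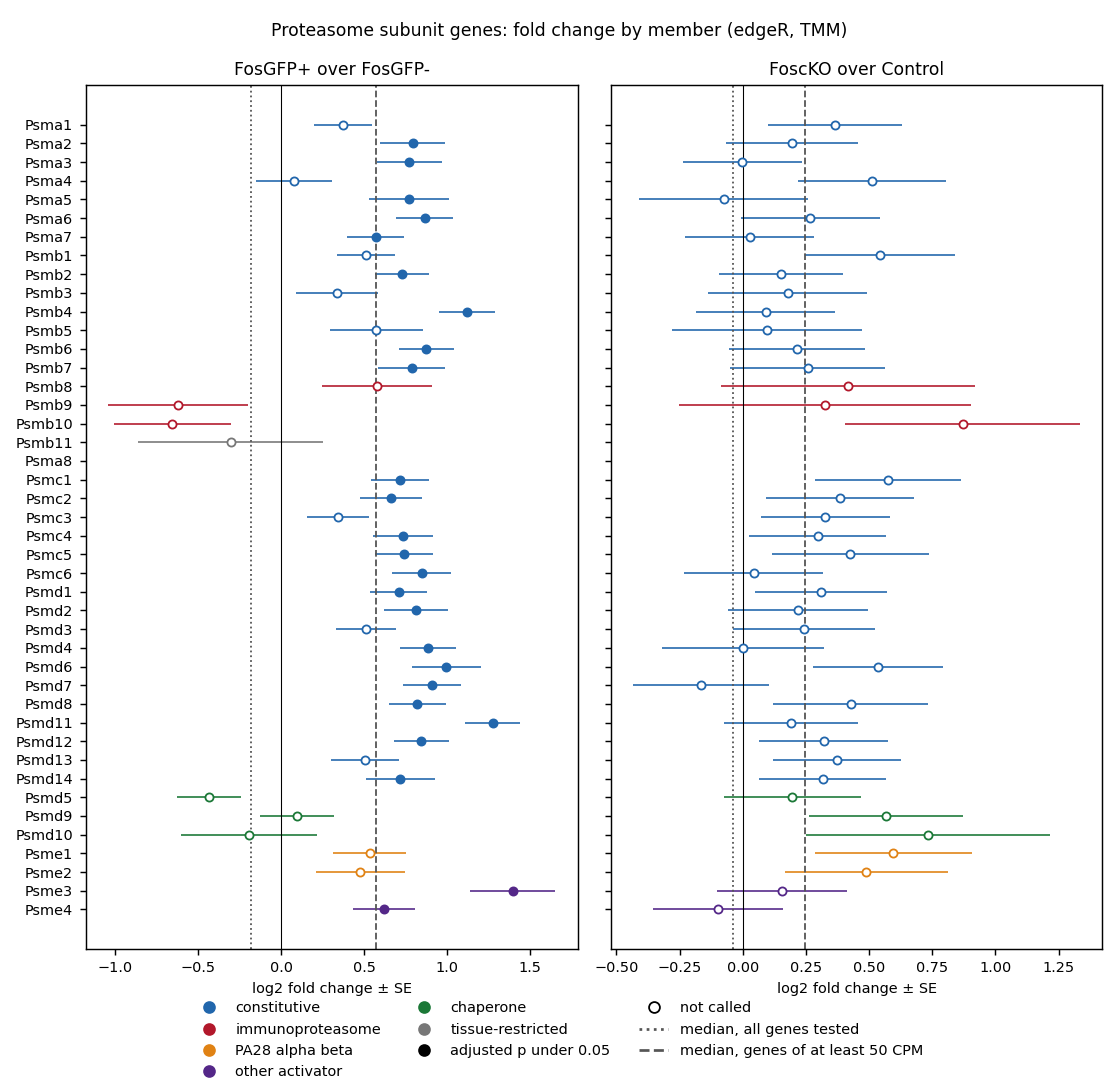
Log2 fold change ± SE of every tested subunit gene, FosGFP+ over FosGFP- on the left and FoscKO over Control on the right. Filled points passed an adjusted p of 0.05, the dotted line is the median of all genes tested and the dashed line the median of genes of at least 50 CPM. On the left 25 points are filled, all right of 0, and the immunoproteasome subunits Psmb9 and Psmb10 lie left of 0. On the right no point is filled.

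The largest fold changes stood in Psme3, Psmd11 and Psmb4. Psme3 encodes PA28 gamma, a nuclear activator that opens the core without ubiquitin. It stood at 233, 305, 224 and 263 CPM in FosGFP+ replicates 1 to 4, against 109, 95.8, 137 and 47.8 CPM in FosGFP-. Every FosGFP+ library lay above every FosGFP- library, and replicate 4 of FosGFP- was the lowest. The log2 fold change was 1.39 ± 0.26 (SE), with an edgeR adjusted p of 0.00194.

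Psmd11, the cap subunit Rpn6 that clamps the cap to the core, had 258, 263, 254 and 258 CPM in FosGFP+, against 109, 96.7, 126 and 96.5 CPM in FosGFP-. The groups did not overlap, and the FosGFP+ libraries lay close together. Its log2 fold change was 1.27 ± 0.17 (SE), with an edgeR adjusted p of 2.39e-04. Copies elsewhere in the genome, 1 pseudogene among them, match 52.7% of its principal transcript at 95% identity or more, so reads could be shared. Psmb4, a beta subunit without a catalytic site, had 173, 185, 161 and 187 CPM in FosGFP+, against 76.5, 87.9, 87.8 and 72.7 CPM in FosGFP-. Here too the groups stood apart, with a log2 fold change of 1.12 ± 0.17 (SE) and an edgeR adjusted p of 5.13e-04. Psme3, Psmd11 and Psmb4 lay above 95.5%, 89.1% and 82.1% of the other genes within 10% of their level.

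Psmd7, the cap subunit Rpn8 that holds the deubiquitinase Psmd14, had 146, 162, 175 and 149.6 CPM in FosGFP+, against 96.4, 78.6, 89.5 and 72.1 CPM in FosGFP-, a log2 fold change of 0.91 ± 0.17 (SE; edgeR adjusted p 0.00258). Psmd2, the cap scaffold Rpn1 and the member with the highest mean CPM, had 202, 283, 274 and 307 CPM in FosGFP+, against 143, 139.5, 196 and 128 CPM in FosGFP-. Its groups did not overlap, though a pseudogene matches 98.2% of its principal transcript at 95% identity or more. Its log2 fold change was 0.81 ± 0.19 (SE; edgeR adjusted p 0.011).

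By structure, 9 of 14 constitutive 20S subunits and 14 of 17 cap subunits were called higher. Of all genes tested 10.3% were called higher, as were 42.3% of those of at least 50 CPM. The cap subunits had mean CPM of 53.5 to 209, and the 20S subunits 20.6 to 202. Psmb3, Psmb5 and Psma4 were not called, and 3.46%, 2.94% and 12.6% of the genes near their level were called higher. The part of level in these counts was not tested. In the alpha ring, which gates the core, 5 of 7 were higher, with fold changes from 0.08 to 0.86 on the log2 scale. Psma1 and Psma4 were not called. Of the 4 beta subunits without a catalytic site, Psmb2 and Psmb4 were higher, while Psmb1 and Psmb3 were not called. In the ATPase ring 5 of 6 were higher, Psmc3 being the exception, and among the non-ATPase subunits 9 of 11, with Psmd3 and Psmd13 not called. The cap to core ratio of summed counts stood at 1.82, 1.92, 1.86 and 1.92 in FosGFP+, against 1.88, 1.82, 1.92 and 1.61 in FosGFP-, so these overlapped. Over all members, the 4 FosGFP+ libraries lay above the 4 FosGFP- libraries for 29 of 42 genes and below them for 3, Psmb9, Psmb10 and Psmd5. Over all genes tested 12.9% lay wholly above and 6.45% wholly below. Of the 6909 genes in the subunits' CPM range, 1977 lay wholly above and 239 wholly below. Among the 3946 genes of at least 50 CPM, 1916 lay wholly above and 63 wholly below.

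The constitutive catalytic subunits were mostly higher, and their immunoproteasome counterparts did not pass the test. Psmb6 had 240.5, 279, 239.6 and 288 CPM in FosGFP+, against 149, 127, 145 and 152 CPM in FosGFP-, a log2 fold change of 0.87 ± 0.17 (SE; edgeR adjusted p 0.00242). Psmb7 had 46.1, 59.1, 50.8 and 59.0 CPM in FosGFP+, against 29.7, 28.7, 37.0 and 29.3 CPM in FosGFP-, a log2 fold change of 0.79 ± 0.20 (SE; edgeR adjusted p 0.0177). In both genes the groups stood apart. Psmb5 had 23.9, 21.7, 24.8 and 28.0 CPM in FosGFP+, against 11.6, 13.2, 18.6 and 22.9 CPM in FosGFP-. Its groups overlapped and it was not called (log2 fold change 0.57 ± 0.28, edgeR adjusted p 0.203). A copy elsewhere matches 88.4% of its transcript at 98% identity or more, so its counts are uncertain.

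Of the immunoproteasome subunits, Psmb8, which takes the place of Psmb5, had 17.3, 24.4, 11.2 and 13.7 CPM in FosGFP+, against 14.2, 8.17, 9.31 and 12.9 CPM in FosGFP-, and the groups overlapped. Psmb9, the counterpart of Psmb6, had 2.11, 4.92, 5.58 and 4.92 CPM in FosGFP+, against 7.00, 6.76, 5.93 and 7.33 CPM in FosGFP-. Psmb10, the counterpart of Psmb7, had 4.21, 8.61, 7.82 and 8.55 CPM in FosGFP+, against 9.40, 13.2, 13.0 and 10.6 CPM in FosGFP-. For Psmb9 and Psmb10 every FosGFP+ library lay below every FosGFP- library, as was so for 6.45% of all genes tested. None of them passed the test, with log2 fold changes of 0.58 ± 0.33, -0.62 ± 0.42 and -0.66 ± 0.35 (SE) and edgeR adjusted p-values of 0.285, 0.361 and 0.249 for Psmb8, Psmb9 and Psmb10. Their counts were low: Psmb9 had 9 to 24 reads per library in FosGFP+ and 21 to 32 in FosGFP-, of which an even background would supply 11.3 to 14.1 and 13.7 to 15.6.

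A ratio of 2 genes within a library does not depend on how libraries are scaled. Per exonic kb, Psmb10 stood to Psmb7 as 0.183, 0.293, 0.309 and 0.291 in FosGFP+, against 0.634, 0.925, 0.705 and 0.722 in FosGFP-. All 4 FosGFP+ ratios were below all 4 FosGFP- ratios. Psmb9 stood to Psmb6 as 0.00448, 0.00901, 0.0119 and 0.00873 in FosGFP+, against 0.0241, 0.0273, 0.0209 and 0.0246 in FosGFP-, again without overlap. These ratios set a low gene against an abundant one, and fold changes moved with level: the median was -0.45 and -0.40 among genes within 10% of the CPM of Psmb9 and Psmb10, against 0.57 among genes of at least 50 CPM. Psmb9 and Psmb10 lay above 36.6% and 30.5% of the genes near their level and Psmb8 above 92.7%, and the part of level in the ratios was not tested. Psmb8 to Psmb5 overlapped, at 0.12 to 0.299 in FosGFP+ and 0.133 to 0.326 in FosGFP-. With the even background taken off the counts, which was added after the data were seen, Psmb10 to Psmb7 ran from 0.129 to 0.266 in FosGFP+ and from 0.590 to 0.912 in FosGFP-. Psmb9 to Psmb6 then ran from 0 to 0.00482 in FosGFP+ and from 0.00741 to 0.0125 in FosGFP-. Leukocytes are rich in immunoproteasome. Their markers summed higher in FosGFP- on average, as given above, and their part in these ratios was not tested.

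**Figure D2:**
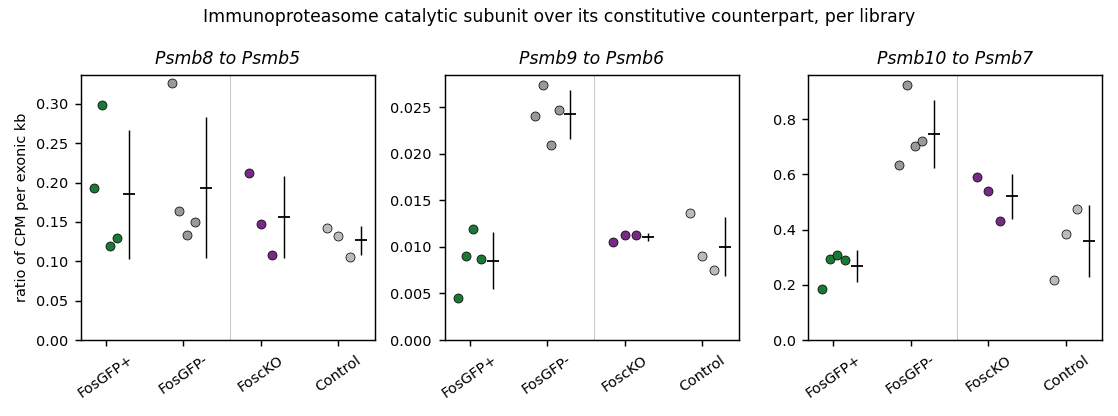
Ratio of each immunoproteasome catalytic subunit to its constitutive counterpart, in CPM per exonic kb, in each library (points), with the mean ± SD beside them. For Psmb10 to Psmb7 the 4 FosGFP+ libraries lie between 0.183 and 0.309 and the 4 FosGFP- libraries between 0.634 and 0.925, while Psmb8 to Psmb5 overlaps.

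Among the activators, Psme3 and Psme4 were called higher, while Psme1 and Psme2 were not. Psme1 and Psme2 encode the interferon-induced activator PA28 alpha beta. Psme1 had 42.8, 44.7, 35.2 and 51.5 CPM in FosGFP+, against 33.0, 34.7, 23.7 and 29.0 CPM in FosGFP-, and Psme2 had 20.1, 26.9, 16.8 and 28.0 CPM in FosGFP+, against 17.7, 14.9, 15.8 and 17.6 CPM in FosGFP-. The libraries stood apart for Psme1 and overlapped for Psme2. Neither was called, with log2 fold changes of 0.53 ± 0.22 and 0.48 ± 0.27 (SE) and edgeR adjusted p-values of 0.133 and 0.27. The near-identical gene Psme2b shares 82.5% of the Psme2 transcript at 98% identity or more. Psme4, which encodes the nuclear activator PA200, had 67.8, 84.5, 65.9 and 83.1 CPM in FosGFP+, against 53.4, 50.2, 50.5 and 42.5 CPM in FosGFP-. It was called higher, with a log2 fold change of 0.62 ± 0.19 (SE; edgeR adjusted p 0.0419), but that call held in only 9 of 19 settings. The adjusted p was 0.31 with total counts and 0.0659 with the even background subtracted, and leaving out any FosGFP- library, or FosGFP+ replicate 2 or 4, also ended the call. The fold changes of Psme1, Psme2 and Psme4 did not differ beyond their SE. Psme1 lay above 74.5% of the genes near its level, Psme2 above 86.6% and Psme4 above 66.8%. Of those genes 13.1%, 3.41% and 26.2% were called higher, in the same order. The part of level in these calls was not tested. The ratio of Psme1 to Psme3 per exonic kb ran from 0.196 to 0.262 in FosGFP+ and from 0.230 to 0.811 in FosGFP-, with an overlap.

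The cap chaperones, which assemble the ATPase ring and leave it, did not pass the test under plain TMM. Psmd5 had 37.4, 43.9, 33.5 and 42.5 CPM in FosGFP+, against 52.3, 57.5, 52.8 and 50.1 CPM in FosGFP-, with every FosGFP+ library lower (log2 fold change -0.43 ± 0.19, edgeR adjusted p 0.164). A wholly lower group was found for 6.45% of all genes tested. Psmd5 lay above 8.49% of the genes within 10% of its level, Psmd9 above 41.9% and Psmd10 above 67.0%. Psmd5 was called lower with total counts, with TMM from genes of at least 50 CPM and after background subtraction. The edgeR adjusted p-values were 0.0104, 0.00304 and 0.0494, and 10.1%, 25.6% and 1.56% of all genes were lower there. Psmd9 and Psmd10 overlapped, with log2 fold changes of 0.09 ± 0.22 and -0.19 ± 0.41 (SE). The tissue-restricted members were at the level of background. Psma8, known from testis, had 4 to 14 reads per library in FosGFP+ and 4 to 12 in FosGFP-, too few to be tested. Psmb11, known from thymic epithelium, had 5 to 18 reads in FosGFP+ and 8 to 25 in FosGFP-, where the even background alone would give 14.8 to 18.4 and 17.9 to 20.5.

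**Figure D3:**
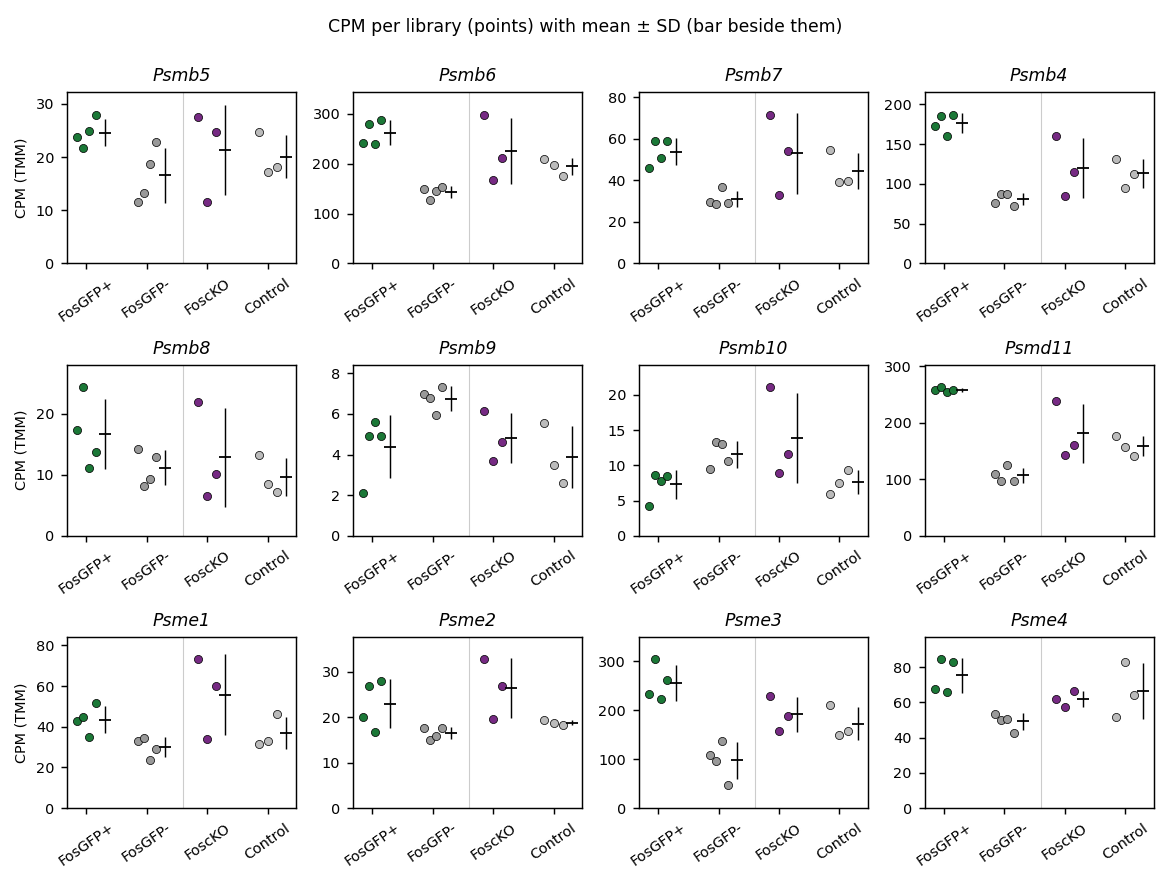
CPM per library (points) of 12 subunit genes in the 4 groups, with mean ± SD beside the points; the axis of each panel starts at 0. Psmd11 sits between 254 and 263 CPM in FosGFP+ and between 96.5 and 126 CPM in FosGFP-, and Psmb9 and Psmb10 are lower in FosGFP+ than in FosGFP-.

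The promoters of some members are shown because genes of this family are known to share regulatory elements upstream of their starts. RefSeq windows on GRCm38.p6 were found for 36 of the 43 members, with 39 starts in all. Psma8, Psmb1, Psmb2, Psmb7, Psmc3, Psmd3 and Psmd7 had none. The 250 bases before each start were searched on both strands for 9 strings, chosen with the fold changes known, and no test was made. The core of the antioxidant response element, TGACNNNGC, which Nfe2l1 and Nfe2l2 bind with small Maf proteins, is in capitals in the first 3 sequences. The ETS core CCGGAAG is in capitals in the last 2, which belong to the members with the largest fold changes. Psmb6 and Psmd12 were called higher and Psmb5 was not.
Psmb6, chr11:70525107-70525356, + strand: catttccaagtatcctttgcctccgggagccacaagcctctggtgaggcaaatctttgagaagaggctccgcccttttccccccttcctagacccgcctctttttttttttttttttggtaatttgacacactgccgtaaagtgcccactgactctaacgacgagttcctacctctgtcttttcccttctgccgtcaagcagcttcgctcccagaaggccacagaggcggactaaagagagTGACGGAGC
Psmd12, chr11:107479278-107479527, + strand: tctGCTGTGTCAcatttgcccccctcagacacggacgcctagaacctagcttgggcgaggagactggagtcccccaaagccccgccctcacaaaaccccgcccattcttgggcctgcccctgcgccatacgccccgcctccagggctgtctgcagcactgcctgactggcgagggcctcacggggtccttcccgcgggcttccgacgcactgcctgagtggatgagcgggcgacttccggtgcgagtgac
Psmb5, chr14:54617996-54618245, - strand: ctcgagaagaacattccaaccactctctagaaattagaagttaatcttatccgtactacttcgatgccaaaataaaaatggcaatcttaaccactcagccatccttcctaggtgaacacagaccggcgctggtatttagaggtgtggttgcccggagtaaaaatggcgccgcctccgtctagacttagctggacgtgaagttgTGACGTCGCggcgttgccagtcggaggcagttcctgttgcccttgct
Psmd11, chr11:80428365-80428614, + strand: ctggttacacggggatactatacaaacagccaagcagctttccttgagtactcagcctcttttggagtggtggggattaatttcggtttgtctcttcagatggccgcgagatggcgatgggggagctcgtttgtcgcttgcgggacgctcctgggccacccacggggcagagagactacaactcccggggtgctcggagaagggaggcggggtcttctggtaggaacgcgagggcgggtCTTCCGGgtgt
Psme3, chr11:101315963-101316212, + strand: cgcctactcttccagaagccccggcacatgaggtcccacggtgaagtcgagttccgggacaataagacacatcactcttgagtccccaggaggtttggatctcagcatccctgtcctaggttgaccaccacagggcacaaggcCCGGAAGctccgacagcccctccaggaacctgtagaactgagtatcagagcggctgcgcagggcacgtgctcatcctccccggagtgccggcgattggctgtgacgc

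TGACNNNGC was found in 5 of the 39 member windows, those of Psmb5, Psmb6, Psmc6, Psmd9 and Psmd12. It was in 10.2% of all 32851 windows and in 11.5% of the 7075 windows of genes in the subunits' CPM range. The AP-1 string TGANTCA, which Fos and Jun proteins bind, was found in 1 member window, that of Psmd9. It was in 6.75% of all windows and in 4.3% of those in the CPM range. It can overlap the antioxidant core. CCGGAAG was found in 12 member windows, against 6.91% of all windows and 14.8% of those in the CPM range. By gene it was present in 11 of the 22 members called higher that have a window, and in none of the other 14. Psmb4, which was called higher, has a window without it. The other 14 include low members such as the immunoproteasome subunits. A split by call was not made over other genes, and the part of level was not tested. CCAAT was found in 14 member windows and in 33.8% of all. A match is a string of letters and not a shown binding site.

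Scaling moved the calls more than any other choice. Relative to TMM, the median of all genes fell by 0.38 with total counts and by 0.59 with TMM factors from genes of at least 50 CPM. With total counts 7 members were higher (4.97% of all genes) and 1 lower (10.1% of all genes). Those higher were Psmb4, Psmb6, Psmd4, Psmd6, Psmd7, Psmd11 and Psme3, and the one lower was Psmd5. With TMM from genes of at least 50 CPM, Psmb4, Psmd11 and Psme3 were higher (3.44% of all genes), and Psmb10 and Psmd5 lower (25.6% of all genes). With the even background subtracted, 16 of 40 tested members were higher (9.07% of all genes) and Psmd5 lower (1.56% of all genes). In the subunits' CPM range under these 3 settings, in the same order, 9.86%, 6.32% and 16.7% of genes were called higher. Lower calls there made up 12.0%, 27.4% and 2.11%. The median constitutive subunit exceeded the median of genes of at least 50 CPM by 0.17, 0.17, 0.18 and 0.10 under plain TMM, under total counts, under the TMM restricted to genes from 50 CPM and after background subtraction. Psmb4, Psmd11 and Psme3 were called higher in all 19 settings run for the first comparison, whereas Psma5, Psma7, Psme4 and Psmd14 were called in 4, 9, 9 and 10 of them. Psmb7 was called in 15, with an adjusted p of 0.0501 without FosGFP+ replicate 4.

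**Figure D4:**
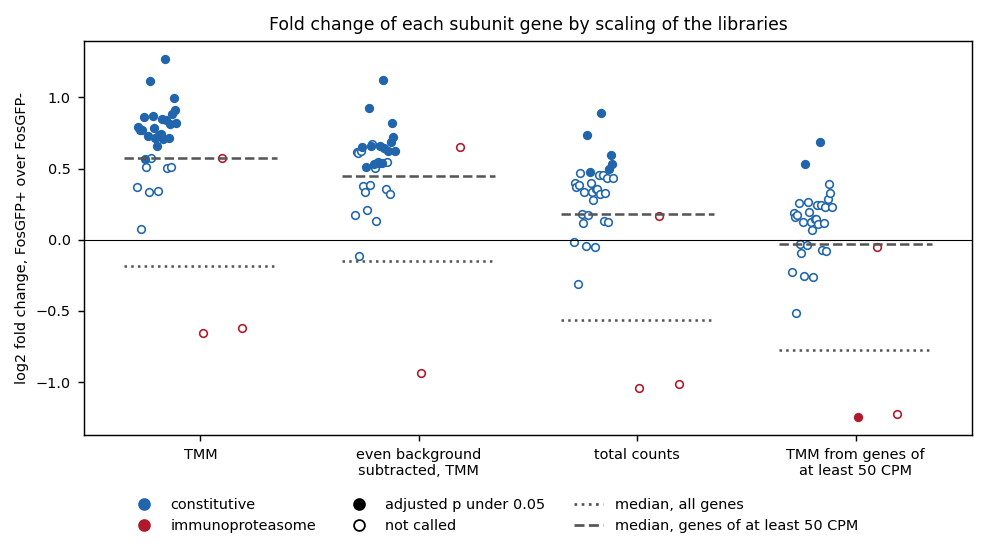
Log2 fold change, FosGFP+ over FosGFP-, of each constitutive (blue) and immunoproteasome (red) subunit under 4 scalings; filled points passed an adjusted p of 0.05. Dotted lines are the median of all genes and dashed lines that of genes of at least 50 CPM. The constitutive median is 0.74 under TMM and 0.15 with TMM factors from genes of at least 50 CPM, close above the dashed line in each column.

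In the authors' deposited table of their own comparison, which lists 3422 genes, 27 members appear, all higher in FosGFP+ once the sign, which runs opposite to the deposited counts, is turned round. All 25 members called here are among them, and Psmb1 and Psmd3 are the others. The authors' deposited table gives Psme3 a log2 fold change of 1.38, Psmd11 one of 1.33 and Psmb4 one of 1.18. It comes from the same libraries, so it is no separate evidence. Over its genes tested here, the Spearman correlation of fold changes was -0.997 before the sign was turned. The share of its 3422 genes that were higher in FosGFP+ was not counted. With DESeq2 run here, 30.8% of genes in the subunits' CPM range were called higher and 2.4% lower.

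Genes that serve the proteasome were described from lists of assembly factors, regulators, ubiquitin supply and antigen processing. Among assembly and associated factors 4 of 16 tested genes were called higher and none lower, with a median log2 fold change of 0.45. Among the genes within 10% of their CPM, 23.4% were called higher on average, and 8 of the 16 lay above the median of these neighbours. Zfand5, which stimulates proteasome activity and is known to rise in muscle atrophy, stood at 1156 ± 149 CPM in FosGFP+ and 368 ± 84.0 CPM in FosGFP- (SD, n = 4 each), which is a log2 fold change of 1.65 ± 0.19 (SE; edgeR adjusted p 1.58e-04). The cap-bound thioredoxin-like gene Txnl1 had a log2 fold change of 1.07 ± 0.17, the ubiquitin receptor gene Adrm1 one of 0.87 ± 0.23 and Akirin2, which brings proteasomes into the nucleus, one of 0.74 ± 0.22. Zfand5 and Txnl1 were also called with total counts and with TMM from genes of at least 50 CPM, while Adrm1 and Akirin2 were not.

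Of 9 regulators 4 were called higher and none lower, with a median of 0.66, while 41.4% of the genes near their level were called higher on average and 5 of the 9 lay above the median of their neighbours. Nfe2l1 stood at 354 ± 48.2 CPM in FosGFP+ and 178 ± 53.3 CPM in FosGFP-, and the related Nfe2l2 at 411 ± 54.9 CPM in FosGFP+ and 184 ± 44.0 CPM in FosGFP- (SD, n = 4 each). Their log2 fold changes were 0.99 ± 0.22 and 1.16 ± 0.20 (SE; edgeR adjusted p 0.00732 and 0.00115). Their partner Mafg and their competitor Bach1 had log2 fold changes of 1.06 ± 0.21 and 0.84 ± 0.22. With TMM from genes of at least 50 CPM, Nfe2l2 and Mafg were called (adjusted p 0.0136 and 0.0417) and Nfe2l1 and Bach1 were not (0.0691 and 0.453).

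Of 15 genes of ubiquitin supply and delivery 8 were called higher and none lower, with a median of 0.66, against 32.3% of the genes near their level. The most abundant of them had as few as 1 such neighbour. They included the autophagy receptor Sqstm1 (log2 fold change 1.11 ± 0.16), the segregase Vcp (0.80 ± 0.18), its cofactor Nploc4 (0.96 ± 0.24) and the ubiquitin-activating enzyme Uba1 (0.86 ± 0.19). Of these, Sqstm1 was also called with TMM from genes of at least 50 CPM. Of 14 genes of antigen processing and interferon signalling 10 were called higher and 1 lower, with a median of 0.93, while 42.1% of the genes near their level were called higher and 2.3% lower on average. The immunoproteasome subunits were not called. The class I heavy chain H2-D1 rose by 1.21 ± 0.16, and the peptide-loading chaperones Calr and Pdia3 by 1.39 ± 0.18 and 1.31 ± 0.19 on the log2 scale. Irf1, a transcription factor known to drive Psmb8, Psmb9 and Psmb10, was the one called lower, at 281 ± 59.0 CPM in FosGFP+ and 631 ± 94.3 CPM in FosGFP- (SD, n = 4 each), which is a log2 fold change of -1.17 ± 0.19 (SE; edgeR adjusted p 8.95e-04). These 4 genes kept their direction and their call under the 3 other scalings given above.

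Levels of different subunits were compared per exonic kb. The constitutive subunits spanned 10.9 to 139.9 CPM per kb in FosGFP+, with a median of 40.5, and 8.59 to 83.3 in FosGFP-, with a median of 26.8. Psmb6, Psmb2, Psma6 and Psmc5 held the first 4 places in both groups. In FosGFP+ Psmb6 stood at 139.9 ± 13.6 and Psmb2 at 137.7 ± 10.6 CPM per kb (SD, n = 4), which do not differ beyond their spread, and Psma6 followed at 111 ± 7.22. The 3 immunoproteasome subunits stood at 4.92 ± 1.70 for Psmb8, 4.28 ± 1.23 for Psmb10 and 1.2 ± 0.42 for Psmb9 in FosGFP+, below every constitutive subunit, and Psmb8 and Psmb10 did not differ beyond their spread. Psma8 and Psmb11 were the lowest in all 4 groups. Psmb5, Psma5, Psma4 and Psmb3, which have near-identical copies over 66.9% to 88.4% of their transcripts, stood below the constitutive median in FosGFP+, whereas Psmc1 and Psmd2, with copies over 82% and 98.2%, stood above it at 46.1 and 66.0 CPM per kb. The median of the 8 constitutive subunits with copies over at least 20% of the transcript was 25.0 CPM per kb in FosGFP+, against 44.5 for the other 23. How reads that match several places were counted is not given in the sources used here. By the length of the principal transcript in place of all exons, Psmb6 and Psmb2 stayed first and second in FosGFP+ and Psma6 held rank 7.

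**Figure D5:**
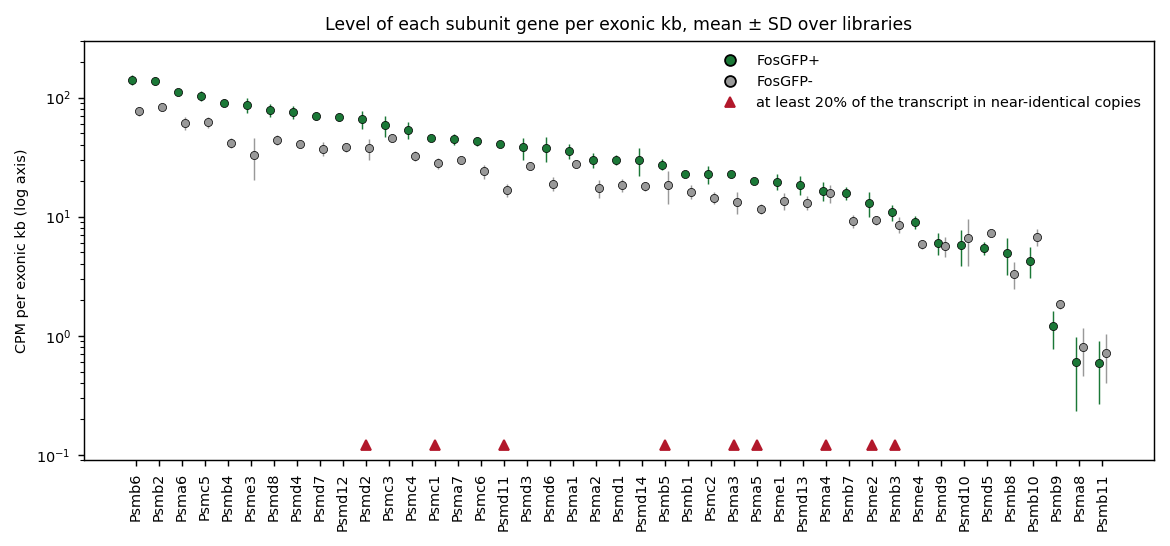
CPM per exonic kb (log axis) of each subunit gene, mean ± SD over the 4 FosGFP+ (green) and 4 FosGFP- (grey) libraries, in the order of the FosGFP+ means; triangles mark members with near-identical copies over at least 20% of the transcript. Psmb6 and Psmb2 are highest in FosGFP+, and the immunoproteasome subunits Psmb8, Psmb10 and Psmb9 lie below every constitutive subunit.

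The second comparison sets libraries labelled FoscKO against Control, and Fos mRNA was not called different between them (log2 fold change 0.03 ± 0.39, edgeR adjusted p 0.996). None of the 41 tested members was called in either direction, nor was any of the 21885 genes tested by edgeR (0% higher and 0% lower). At an unadjusted p under 0.05 there were 1208 genes (5.52%) and no member. DESeq2 called 59 genes higher (0.27%) and 32 lower (0.146%), limma-voom 4 higher and 6 lower, and neither called a member. The constitutive subunits had a median log2 fold change of 0.26, against 0.25 for genes of at least 50 CPM and 0.20 for genes of their CPM range, and 28 of the 31 lay above 0. The SE of the 41 fold changes ran from 0.23 to 0.58, which limits what could be detected with 3 libraries a group. Of the 31 constitutive subunits 18 lay above the median of the genes within 10% of their level.

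The FoscKO libraries differed among themselves. The summed constitutive level was 4694, 2757 and 3996 CPM in FoscKO replicates 1 to 3, against 3742, 3154 and 2745 CPM in Control. In FoscKO replicate 1, 28 of the 31 constitutive subunits lay above the highest Control library, as did 22 in replicate 3 and 1 in replicate 2, where 15 lay below the lowest. Of the 6621 genes in the subunits' CPM range, 63.7%, 22.0% and 44.4% lay above the highest Control library in FoscKO replicates 1, 2 and 3, and 33.9% lay below the lowest in replicate 2. As a share of all gene counts the sum was 0.348% ± 0.0394 in FoscKO and 0.344% ± 0.0337 in Control (SD, n = 3 each). Markers of mature fibre summed to 525 to 1705 CPM in FoscKO and 1482 to 3176 CPM in Control, and their part in these values was not tested. Without FoscKO replicate 1 the median constitutive fold change was 0.09, and without FoscKO replicate 2 it was 0.44.

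The smallest p-values belonged to Psmd6, Psmc1, Psme1, Psmb10 and Psmd9. The cap subunit gene Psmd6 had 120.3, 79.1 and 121 CPM in FoscKO, against 78.4, 80.3 and 62.7 CPM in Control, and the ATPase gene Psmc1 had 110.1, 55.3 and 108 CPM in FoscKO, against 70.6, 59.9 and 53.1 CPM in Control. Both overlapped. Their log2 fold changes were 0.54 ± 0.26 and 0.58 ± 0.29 (SE), with edgeR adjusted p-values of 0.91 and 0.914. Psme1 had 73.2, 34.1 and 60.0 CPM in FoscKO, against 31.7, 33.0 and 46.1 CPM in Control. Psmb10 had 21.1, 8.85 and 11.7 CPM in FoscKO, against 5.93, 7.48 and 9.35 CPM in Control, and the chaperone gene Psmd9 had 65.0, 31.2 and 41.4 CPM in FoscKO, against 29.5, 31.9 and 31.4 CPM in Control. In each of the 5 genes FoscKO replicate 2 lay within the range of the Control libraries.

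The 3 immunoproteasome subunits had a median log2 fold change of 0.42, and none was called. Genes within 10% of their CPM had a median of -0.13. All 3 subunits lay above the median of these neighbours, by 0.62 in the median subunit. Psmb8 had 21.9, 6.46 and 10.1 CPM in FoscKO, against 13.2, 8.55 and 7.26 CPM in Control, and Psmb9 had 6.15, 3.69 and 4.64 CPM in FoscKO, against 5.56, 3.47 and 2.58 CPM in Control. Psmb10 to Psmb7 per exonic kb was 0.591, 0.541 and 0.431 in FoscKO, against 0.218, 0.385 and 0.473 in Control, and the groups overlapped. Psme2 had 32.7, 19.6 and 26.8 CPM in FoscKO, against 19.5, 18.7 and 18.2 CPM in Control. Its groups did not overlap, as was so for Psmd13 and for no other member, against 5.75% of all genes lying wholly above. Neither was called. Irf8, which encodes an interferon regulatory factor, had the smallest p of the 4 lists, with a log2 fold change of 1.47 ± 0.32 (SE; edgeR adjusted p 0.239).

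The genes with the largest fold changes in the first comparison overlapped between FoscKO and Control. Psme3 had 229.6, 157 and 189 CPM in FoscKO, against 211, 149 and 157 CPM in Control, and Psmd11 had 239, 142 and 161 CPM in FoscKO, against 176, 158 and 141 CPM in Control. Psmb4 had 160.4, 85.0 and 116 CPM in FoscKO, against 132, 95.3 and 112 CPM in Control. Their log2 fold changes were 0.16 ± 0.26, 0.19 ± 0.26 and 0.09 ± 0.28 (SE). Psmb5 had 27.5, 11.6 and 24.8 CPM in FoscKO, against 24.7, 17.2 and 18.2 CPM in Control, Psmb6 had 298, 167 and 211 CPM in FoscKO, against 209, 198 and 175 CPM in Control, and Psmb7 had 71.6, 32.8 and 54.3 CPM in FoscKO, against 54.5, 39.0 and 39.7 CPM in Control. Psme4 had 62.2, 57.4 and 66.5 CPM in FoscKO, against 51.5, 83.1 and 64.3 CPM in Control. Psmd8, the cap subunit Rpn12 and the member with the highest mean CPM in this dataset, had 429, 212 and 285 CPM in FoscKO, against 296, 211 and 183 CPM in Control. In each of these 8 genes the groups overlapped. Psma8 and Psmb11 had too few reads to be tested, at 0 to 11 and 0 to 8 in FoscKO and 7 to 12 and 2 to 20 in Control. Whether a fold change differs between the 2 datasets was not tested, since they were counted and scaled apart.

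In GRCm38 the subunit genes are scattered over the genome. Psme3 (ENSMUSG00000078652) lies on chromosome 11 from 101316213 to 101323537, Psmd11 (ENSMUSG00000017428) on chromosome 11 from 80428615 to 80473248 and Psmb4 (ENSMUSG00000005779) on chromosome 3 from 94884093 to 94886961. Psmb8 and Psmb9 are neighbours on chromosome 17, from 34197721 to 34201454 and from 34181987 to 34187764, and Psmb10 lies on chromosome 8 from 105935735 to 105938444. Exons of Psmb9 overlap those of Tap1 over 5.8% of their length, those of Psmb8 overlap Gm20496 over 14.7% and those of Psmb7 overlap Nek6 over 11.8%, and without strand in the library these reads cannot be told apart.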

How the data were processed

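RNA from 1000 sorted cells per library was amplified and sequenced without keeping strand, per the labels' protocols. The authors deposited raw counts per Ensembl gene for 14 libraries; the submitters' processing notes name GRCm38, HTSeq 0.6.1, STAR 2.5.0c, limma and DESeq2 1.20.0 without giving them roles. HTSeq's lines that name no gene held 69.8% to 89.7% of the reads and were left out. The authors also deposited tables of their own comparisons with log2 fold changes, p-values and normalized mean signal; 14 columns of per-library values in them were not used.

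Counts were tested with edgeR 4.0.16 (TMM, filterByExpr, robust quasi-likelihood test, R 4.3.3) on all genes of each table, with Benjamini-Hochberg adjustment and a threshold of 0.05. The SE is the absolute log2 fold change over the square root of F. Fold changes are on the log2 scale and CPM use the TMM library sizes. DESeq2 1.42.0, limma 3.58.1 (voom), other scalings and filters, and leaving out each library were alternatives. Gene models were GENCODE M21 on GRCm38, and copies were found with blastn 2.17.0. The even background was the mean density of reads over 1467 receptor genes. The code was tested on simulated data.

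Members and gene lists were chosen with earlier results of these data known. Values per library are given for Psmb5 to Psmb10, Psme1 to Psme4, the 5 members with the smallest p in each comparison and the members with the highest and lowest mean; up to 4 genes of each other list are named, by smallest p. Intervals and errors are between libraries, and PCR copies were not removed by molecular identifiers.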

Additional observations from a re-analysis of the deposited data

Results flagged for a closer look

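In 4 of 86 sets of values of a member within a FosGFP group, 1 library stood apart from the other 3 by more than Dixon's critical value, which chance gives in about 1 in 20 sets. Psma4 had 28.8 CPM in FosGFP+ replicate 1, against 42.0 to 43.6 CPM in the other FosGFP+ libraries. Psmd3 had 249 CPM in FosGFP+ replicate 4, against 163 to 174 CPM in the others. Psmb7 had 37.0 CPM in FosGFP- replicate 3, against 28.7 to 29.7 CPM in the others, and Psmc6 had 66.9 CPM in FosGFP- replicate 1, against 88.1 to 90.02 CPM in the others.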

How the results depend on the processing

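In the first comparison 3 of the 25 calls on members (Psmb4, Psmd11 and Psme3) held in all 19 settings, and those on Psma5, Psma7 and Psme4 in 4, 9 and 9. Total counts gave 1029 higher genes, 2087 lower genes, 7 higher members and 1 lower member, with medians of 0.35 for constitutive and -1.01 for immunoproteasome subunits. With TMM from genes of at least 50 CPM, 712 genes were higher and 5307 lower, 3 members higher and 2 lower, with medians of 0.15 and -1.22, and Psma7 turned to -0.028 (log2). After background subtraction 16 members were higher and 1 lower, 244 genes were lower, and the medians were 0.55 and -0.14, the last over Psmb8 and Psmb10. Lower genes numbered 588 with a minimum mean of 5 CPM and 644 with DESeq2. Leaving out 1 library gave 1689 to 2202 genes higher and 183 to 364 lower, 18 to 24 members higher and 0 lower, and medians of 0.74 to 0.84 and -0.66 to -0.36; the lower genes were 183 without FosGFP- replicate 1, 218 without FosGFP+ replicate 4, 227 without FosGFP- replicate 4, 237 without FosGFP- replicate 3 and 245 without FosGFP+ replicate 2. In the second comparison no member was called in any setting. Genes higher and lower were 12 and 34 with total counts, 11 and 33 with TMM from genes of at least 50 CPM, 85 and 46 without a filter, 15 and 20 at 5 CPM, 59 and 32 with DESeq2, 4 and 6 with limma-voom and 3 and 14 after background subtraction. Leaving out 1 library gave 0 to 16 higher and 0 to 27 lower, the most without FoscKO replicate 1, with medians of 0.09 to 0.44 for constitutive and 0.12 to 0.75 for immunoproteasome subunits. Same-numbered libraries had correlations of -0.01 to 0.03 and -0.04 to 0.21 between their deviations from the group means. Other pairs ran from -0.14 to 0.17 and from -0.23 to 0.22. With so few libraries a group, these values cannot show whether the numbers mark shared mice. A replicate block gave 2002 genes higher and 278 lower and 21 members higher in the first comparison, and 23 genes higher and 20 lower in the second. The cause of these shifts was not tested. Low counts limit the immunoproteasome and tissue-restricted subunits.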
